A study of Homo sapiens with 3 samples.

Results

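Glucocorticoid-responsive genes are genes whose transcription is raised by cortisol or by synthetic glucocorticoids in many cell types. The hormone enters the cell and binds the glucocorticoid receptor, encoded by NR3C1, which waits in the cytoplasm in a complex with HSP90 and co-chaperones. The receptor then moves to the nucleus and binds glucocorticoid response elements, paired short sequences separated by a gap, often far from the genes it regulates. Its targets include regulators of inflammation, sodium transport, growth factor signalling and the circadian clock, and some of them feed back on the receptor itself.

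The set described here holds 10 of the 58037 genes counted, taken by symbol: the receptor gene NR3C1 and the target genes SCNN1A, TSC22D3, PER1, FKBP5, KLF9, SGK1, ERRFI1, CRISPLD2 and ZBTB16. The genes were chosen by what is known of them and by earlier results of the same libraries, in which the counts of SCNN1A, TSC22D3, PER1 and FKBP5 in YA against control and OA stood out. Their values are therefore a description and not a test. A mean normalised count of at least 20 was reached by 14413 genes and by 9 of the 10. Only ZBTB16 fell below it.

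RNA was sequenced from A375, an established human melanoma cell line, in 3 libraries, 1 per group. Cells that had grown in DMEM with fetal bovine serum were washed and kept for 24 h in serum-free DMEM (control) or in the secretome of young (YA-A375) or old (OA-A375) adipocytes. A secretome here is serum-free DMEM conditioned by adipocytes that had been differentiated in culture from subcutaneous preadipocytes of donors. The differentiation medium contained insulin, dexamethasone (a synthetic glucocorticoid), indomethacin and IBMX. The cells were later moved to maintenance medium, whose contents, glucocorticoid included, are not given in the sources used here. For each collection they were washed and placed in serum-free DMEM, and between collections they went back to maintenance medium. The exposure is that of the series description, and the treatment protocol allows for longer times. The control medium was not exposed to adipocytes, and the number of donors behind each secretome is not given in the sources used here. Of the donors the paper lists, the young were mostly female with purchased cells. The old were all male, mostly with cells from a biobank. Donor age can therefore not be told apart from donor sex or cell source. With 1 library per group no difference has a replicate check, and none was tested.

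Total counts were 21448195 in control, 21306558 with YA and 18089008 with OA. Each ratio given here is of counts divided by a size factor per library, and the interval after it is its 95% Clopper-Pearson bounds, computed on reads of both libraries. Such intervals cover counting error only and speak of libraries, not of conditions. No molecular identifiers are described, so amplified reads need not each stand for a separate molecule. Counts are as deposited, from a shallower library in OA, and where 3 are given without labels they stand in the order control, YA and OA. Statements on which library was high or low rest on normalised counts. In bulk RNA, a change in the number of cells that express a gene cannot be told apart from a change in RNA per cell. Of the melanoma markers, VIM, AXL and PRAME were well counted, PRAME being the lowest of them with 3262, 3645 and 3388 counts, and MITF, the melanocyte lineage factor, had 1221, 764 and 881 counts in control, YA and OA. SOX10, a neural crest factor of most melanomas, was at 0 in all 3 libraries, and the pigment genes PMEL, TYR, DCT and TYRP1 had at most 10 counts.

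The region before the start of transcription is shown for PER1, FKBP5 and TSC22D3, because these 3 genes have the largest ratios of YA to control among the genes in the RefSeq promoter table. SCNN1A and ZBTB16 have no entry there. The sequences are from GRCh38.p14, minus strand, 5′ to 3′, and stop before any annotated exon. Capitals mark the E-box CACGTG, the sequence bound by the clock factors CLOCK and BMAL1 and by other factors.
PER1, chr17:8152436-8152654: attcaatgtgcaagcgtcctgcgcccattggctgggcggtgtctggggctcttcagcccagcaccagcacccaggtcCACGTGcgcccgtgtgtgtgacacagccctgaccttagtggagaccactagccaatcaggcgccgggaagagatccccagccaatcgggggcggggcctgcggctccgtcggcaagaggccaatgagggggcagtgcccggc
FKBP5, chr6:35688943-35689165: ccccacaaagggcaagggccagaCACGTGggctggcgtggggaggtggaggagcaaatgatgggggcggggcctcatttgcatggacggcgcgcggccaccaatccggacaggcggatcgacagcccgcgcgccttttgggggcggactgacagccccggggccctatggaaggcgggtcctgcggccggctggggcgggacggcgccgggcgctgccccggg
TSC22D3, chrX:107717136-107717312: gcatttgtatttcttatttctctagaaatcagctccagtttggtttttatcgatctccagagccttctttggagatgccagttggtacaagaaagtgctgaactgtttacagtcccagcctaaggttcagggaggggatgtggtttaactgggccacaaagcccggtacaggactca
The E-box began at base -173 from the listed start of PER1 and at base -227 from 1 of the 2 listed starts of FKBP5, while the window of the other FKBP5 start holds none. The TSC22D3 stretch belongs to one of the 4 starts that the table lists for this gene and holds no E-box.

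Promoter windows of 300 bases, from 250 before to 50 after the start, were available for 8 of the 10 genes, 20 windows in all, of which those of the same gene can overlap. A glucocorticoid response element, searched on both strands as GNACA, any 3 bases and TGTNC, was in 0 of the 20 windows and in 0.390% of 35116 promoter windows of all genes. The stricter form AGAACA, any 3 bases and TGTTCT was also in 0 of 20. A single AGAACA or TGTTCT lay in 2 windows, of FKBP5 at base 1 and of SGK1 at base 6, against 14.8% of all windows. The E-box was in 2 of 20 windows against 7.26% of all, and the palindromic cyclic AMP response element (TGACG followed by TCA) was in 0 of 20 against 1.85%. Over the 14809 windows of genes past the filter, the shares were 0.250% for the response element, 9.74% for the single sequence, 9.12% for the E-box and 2.72% for the cyclic AMP element, so the 2 of 20 for the single sequence are below the share of all windows but not below this one. These are matches of letters in short windows and say nothing about binding by a factor there or elsewhere.

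NR3C1 encodes the glucocorticoid receptor and lies on chromosome 5 (ENSG00000113580.14, chr5:143277931-143435512, GENCODE release 29 on GRCh38). It had 2278 counts in control, 2169 with YA and 2154 with OA. The normalised ratio was 0.955 in YA against control (0.900 to 1.01), 1.13 in OA against control (1.06 to 1.195) and 0.848 in YA against OA (0.798 to 0.900). Receptor mRNA was thus present at similar levels in the 3 libraries, within 1.2-fold of one another, and OA was the highest.

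SCNN1A encodes the alpha subunit of the epithelial sodium channel, a classical corticosteroid target in kidney and lung epithelium (ENSG00000111319.12, chr12:6346843-6377730). It had 95 counts in control, 1200 with YA and 75 with OA. The YA library was 12.7-fold above control (10.3 to 15.8) and 13.5-fold above OA (10.7 to 17.2). The OA ratio to control was 0.940 (0.685 to 1.29), so YA stood alone. LTBR, on the opposite strand, shares 422 of the 5876 exon bases of SCNN1A (7.18%), and use of strand in counting is not given in the sources used here. LTBR had 3066 counts in control, 4078 with YA and 3503 with OA.

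TSC22D3 encodes GILZ, the glucocorticoid-induced leucine zipper protein, which binds and restrains NF-kB and AP-1 (ENSG00000157514.16, chrX:107713221-107777342). It had 71 counts in control, 779 with YA and 49 with OA. The YA library was 11.005-fold above control (8.62 to 14.2) and 13.4-fold above OA (10.02 to 18.3). The OA ratio to control was 0.822 (0.559 to 1.1998), an interval that includes 1. Here too YA was high and the other libraries were low.

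PER1 encodes a repressor of the circadian clock and is induced directly by glucocorticoids in many tissues (ENSG00000179094.14, chr17:8140472-8156506). It had 582 counts in control, 3339 with YA and 610 with OA. The YA library was 5.75-fold above control (5.27 to 6.29) and 4.61-fold above OA (4.23 to 5.03). OA was 1.25-fold above control (1.11 to 1.40), a much smaller distance than that of YA.

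FKBP5 encodes FKBP51, an HSP90 co-chaperone that lowers the receptor's affinity for hormone and so forms a negative feedback loop (ENSG00000096060.14, chr6:35573585-35728583). It had 649 counts in control, 2159 with YA and 626 with OA. The YA library was 3.34-fold above control (3.05 to 3.65) and 2.90-fold above OA (2.66 to 3.18), while OA was 1.15-fold above control (1.03 to 1.28). FKBP5 followed the same order as PER1, with YA highest and control and OA near each other.

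KLF9 encodes a zinc finger repressor that glucocorticoids induce in brain, skin and other tissues (ENSG00000119138.4, chr9:70384597-70414624). It had 3427 counts in control, 4623 with YA and 1662 with OA. The ratio was 1.35 in YA against control (1.29 to 1.41), 0.578 in OA against control (0.545 to 0.613) and 2.34 in YA against OA (2.21 to 2.48). Unlike SCNN1A, TSC22D3, PER1 and FKBP5, KLF9 was already abundant in control, and most of its distance between YA and OA lay in the lower OA value.

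SGK1 encodes a serum- and glucocorticoid-regulated kinase that keeps sodium channels at the cell surface (ENSG00000118515.11, chr6:134169246-134318112). It had 2417 counts in control, 2771 with YA and 1020 with OA. The ratio was 1.15 in YA against control (1.09 to 1.21), 0.503 in OA against control (0.467 to 0.541) and 2.29 in YA against OA (2.13 to 2.46). As with KLF9, the YA library was a little above control and the OA library well below it.

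ERRFI1 encodes MIG6, an inhibitor of EGFR and ERBB2 signalling (ENSG00000116285.12, chr1:8004404-8026308). It had 10232 counts in control, 10564 with YA and 10383 with OA, the highest counts of the set. The ratio was 1.04 in YA against control (1.01 to 1.06), 1.21 in OA against control (1.18 to 1.24) and 0.857 in YA against OA (0.834 to 0.880). OA was the highest library for this gene.

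CRISPLD2 encodes a secreted protein that is glucocorticoid-induced in airway smooth muscle (ENSG00000103196.11, chr16:84819984-84920768), and it had 46, 43 and 34 counts in control, YA and OA. Its ratio was 0.938 in YA against control (0.604 to 1.45), 0.880 in OA against control (0.548 to 1.40) and 1.06 in YA against OA (0.663 to 1.72). No difference was detectable at this depth. ZBTB16 encodes the zinc finger factor PLZF, which many cell types induce under glucocorticoids (ENSG00000109906.13, chr11:114059593-114250676). It had 1 count in control and 0 in YA and OA, and a count of 0 allows up to 3, so no ratio is given.

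**Figure D1:**
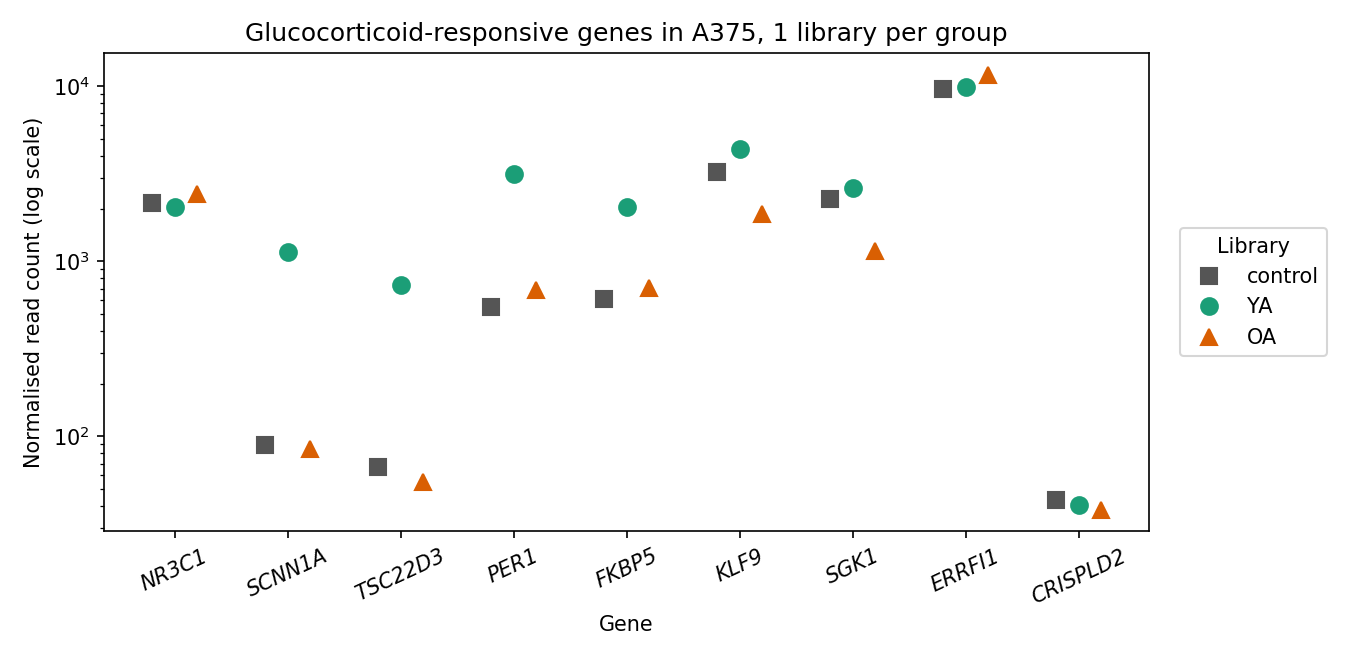
Normalised read count (log scale) of the 9 genes with a mean of at least 20, with 1 point per library: square control, circle YA, triangle OA. SCNN1A, TSC22D3, PER1 and FKBP5 have a YA point well above control and OA, and KLF9 and SGK1 have a low OA point.

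In YA against control, 5 of the 9 were higher by at least 1.2-fold (SCNN1A, TSC22D3, PER1, FKBP5 and KLF9) and 0 were lower, where 17.4% of all 14413 genes were higher and 16.4% lower. At least 2-fold, 4 of 9 were higher and 0 lower, where 2.15% of all genes were higher and 0.971% lower. The median log2 fold change of the 9 was 0.44, beside -0.02 over all genes. Ordered by fold change from the top, SCNN1A ranked 2, TSC22D3 5, PER1 13 and FKBP5 56 of 14413. KLF9 ranked 1403, SGK1 3149, ERRFI1 5599, NR3C1 8377 and CRISPLD2 8923. This contrast is part of what drew attention to the set, so nothing is read from these shares.

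In OA against control, 2 of the 9 were higher by at least 1.2-fold (PER1 and ERRFI1) and 3 lower (TSC22D3, KLF9 and SGK1), where 21.1% of all genes were higher and 21.5% lower. None of the 9 differed 2-fold, beside 2.86% of all genes higher and 3.71% lower. The median log2 fold change was -0.09 against 0.01 for all genes. The interval of TSC22D3 included 1, and those of PER1 and ERRFI1 both began below 1.2-fold. The log2 values were 0.32 for PER1, 0.27 for ERRFI1, 0.20 for FKBP5, 0.17 for NR3C1, -0.09 for SCNN1A, -0.18 for CRISPLD2, -0.28 for TSC22D3, -0.79 for KLF9 and -0.99 for SGK1. The same control library serves in both comparisons, so they are set side by side and not correlated.

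In YA against OA, 6 of the 9 were higher by at least 1.2-fold and 0 lower, where 23.0% of all genes were higher and 21.5% lower, and all 6 were at least 2-fold higher, where 4.43% of all genes were 2-fold higher and 3.04% 2-fold lower. The median log2 fold change was 1.23 against -0.01 over all genes. The 6 reached this in unlike ways. SCNN1A, TSC22D3, PER1 and FKBP5 were high in YA with OA near control, and were at least 2-fold above both other libraries, which 0.895% of all genes were. KLF9 was at least 1.2-fold above control in YA and at least 1.2-fold below it in OA, as were 2.58% of all genes. For SGK1 most of the distance lay between OA and control. SCNN1A, TSC22D3, PER1 and FKBP5 were chosen partly because they stood out in YA against control and OA. Nothing is therefore read from these shares either.

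**Figure D2:**
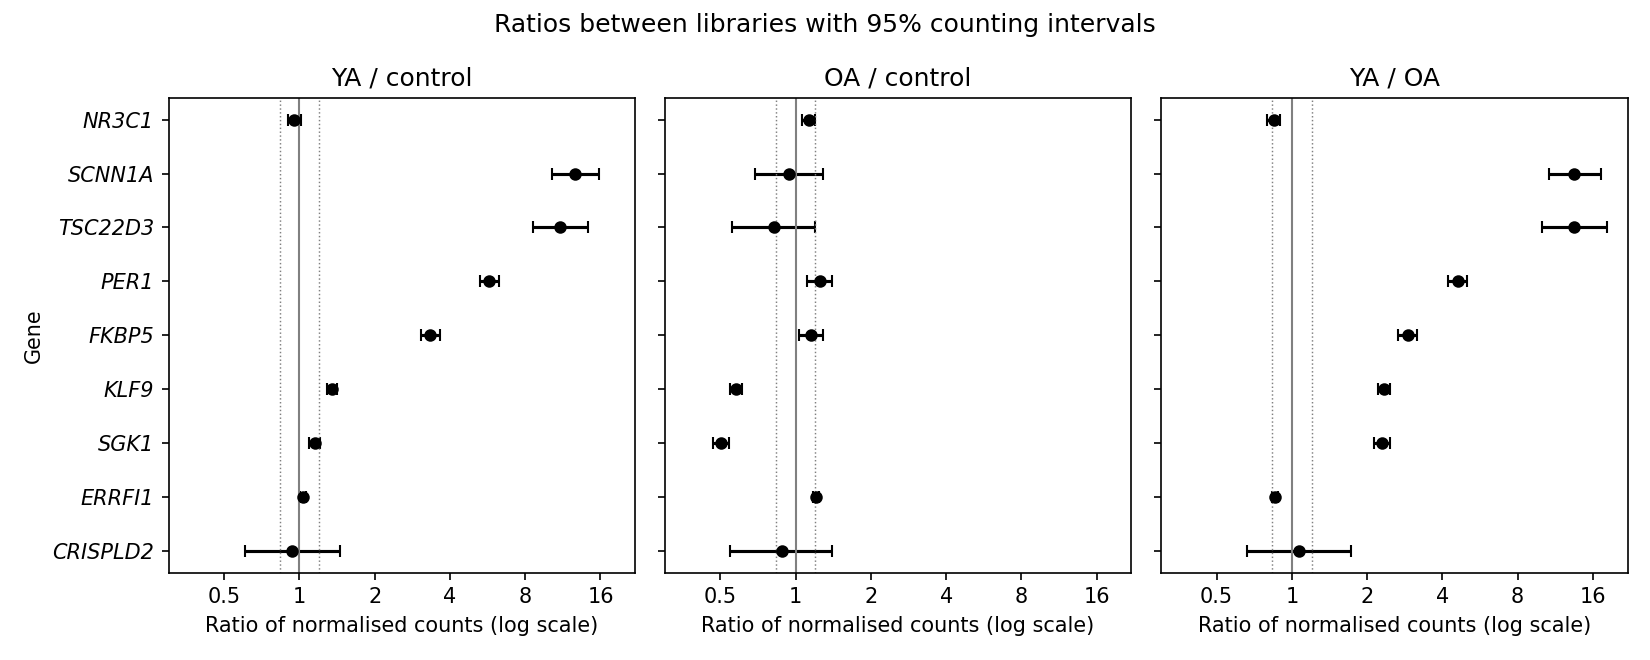
Ratios of normalised counts (log scale) with 95% counting intervals, in 3 panels for YA over control, OA over control and YA over OA, with dotted lines at 1.2-fold either way. The YA over control ratios run from 0.938 for CRISPLD2 to 12.7 for SCNN1A, and the OA over control ratios from 0.503 for SGK1 to 1.25 for PER1.

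Markers of the types of cell that conditioned the media were uneven between libraries. The control medium was not exposed to adipocytes, and control also had counts of these markers. The origin of the marker reads was not tested. Of 14 adipocyte markers 8 passed the filter, and 8 were at least 1.2-fold higher and 0 lower for YA over control, 4 and 1 for OA over control, and 5 and 2 for YA over OA. The counting interval lay above 1 for 6 and below 1 for 0 in YA over control. It did so for 4 and 1 in OA over control and for 5 and 0 in YA over OA. Over all genes the interval lay above 1 for 20.6% and below 1 for 25.6% in YA over control. Those shares were 26.6% and 24.7% in OA over control, and 26.2% and 28.9% in YA over OA. By at least 1.2-fold, 17.4% of all genes were higher and 16.4% lower for YA over control. The 1.2-fold shares were 21.1% and 21.5% for OA over control, and 23.0% and 21.5% for YA over OA. The summed normalised count of the list was 2311 in control, 3293 with YA and 2344 with OA, highest in YA. The defining adipocyte genes were at or near 0: ADIPOQ had 1 count in control and 0 in YA and OA, LEP and CIDEA had 0 in every library, and PLIN1 had 2, 5 and 2. The markers with the largest differences in YA against control were CIDEC (6, 31 and 36 counts), RBP4 (28, 64 and 29), PLIN4 (284, 579 and 321) and LIPE (79, 153 and 67). Between the secretomes the largest difference was that of LPL, lipoprotein lipase, with 353, 583 and 30 counts and a log2 fold change of 3.99 in YA against OA. The low OA value of LPL lowers the OA sum of the list, and the markers did not share 1 order of libraries.

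Of 12 fibroblast and preadipocyte markers 7 passed, with 4 higher and 1 lower for YA over control, 3 and 3 for OA over control, and 4 and 2 for YA over OA. Their summed normalised count was 980 in control, 1337 with YA and 1710 with OA. COL1A2 had 1, 1 and 2 counts and COL3A1 0, 1 and 1, while DCN had 13, 138 and 24, COL6A3 145, 302 and 886, PDGFRA 76, 20 and 51, and COL1A1 75, 117 and 84. Any part of RNA from the conditioning cells in the values of the 10 genes was not tested beyond these counts. Of 13 melanoma markers 7 passed, with 1 higher and 3 lower for YA over control, 2 and 1 for OA over control, and 1 and 2 for YA over OA. The largest differences of YA from control were those of MITF, S100A1 (19, 30 and 15), S100B (843, 591 and 550) and CD63 (8296, 6494 and 5886).

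Levels per kilobase of exon, scaled to the library as in RPKM, allow the genes to be compared with each other. In control the order was ERRFI1 (114), KLF9 (30.9), NR3C1 (11.6), SGK1 (11.3), PER1 (3.88), FKBP5 (2.85), SCNN1A (0.754), TSC22D3 (0.695) and CRISPLD2 (0.269). In YA it was ERRFI1 (118), KLF9 (41.9), PER1 (22.4), SGK1 (13.02), NR3C1 (11.1), SCNN1A (9.58), FKBP5 (9.53), TSC22D3 (7.67) and CRISPLD2 (0.253). In OA it was ERRFI1 (137), KLF9 (17.8), NR3C1 (12.98), SGK1 (5.64), PER1 (4.82), FKBP5 (3.26), SCNN1A (0.706), TSC22D3 (0.568) and CRISPLD2 (0.236). PER1 thus passed NR3C1 and SGK1 in the YA library, and SCNN1A stood beside FKBP5. With the length of the longest transcript, SGK1 (20.6) stood above NR3C1 (14.6) in control and TSC22D3 (1.46) above SCNN1A (1.27). In YA that length put SCNN1A (16.2) and TSC22D3 (16.1) above NR3C1 (13.97) and FKBP5 (13.7), so the order of these neighbours is not settled.

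The share that a gene takes of its family's counts sets it beside its close relatives within a library. TSC22D3 took 1.10% of the counts of the TSC22 domain family TSC22D1 to TSC22D4 in control (exact binomial interval 0.860 to 1.38), 12.0% with YA (11.2 to 12.8) and 0.909% with OA (0.673 to 1.199). TSC22D1 held most of that family's counts in each library, with 4440, 3733 and 3811. PER1 took 78.5% of the counts of PER1 to PER3 in control (75.4 to 81.4), 97.9% with YA (97.3 to 98.3) and 77.9% with OA (74.8 to 80.8).

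The other period genes were lowest in YA. PER2 had 85 counts in control, 45 with YA and 69 with OA, and PER3 had 74, 27 and 104. FKBP5 took 17.7% of the summed counts of FKBP4 and FKBP5 in control (16.5 to 19.0), 44.1% with YA (42.7 to 45.5) and 15.6% with OA (14.5 to 16.7). FKBP4 encodes FKBP52, the co-chaperone that promotes receptor transport to the nucleus, and had 3016, 2742 and 3392 counts.

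SCNN1A held 78.5% of the counts of the 4 sodium channel subunit genes in control, 95.01% with YA and 77.3% with OA. The beta subunit SCNN1B had 0 counts in every library and the gamma subunit SCNN1G had 1 count in YA and 0 elsewhere. The delta subunit SCNN1D had 26 counts in control, 62 with YA and 22 with OA, a ratio of 2.39 in YA against control (1.49 to 3.94). The channel genes detected were therefore alpha and delta, and both were highest in YA. Over the 33 relatives of the 10 genes that passed the filter, of 37 listed, 6 were at least 1.2-fold higher and 8 lower for YA over control, 7 and 9 for OA over control, and 9 and 9 for YA over OA. For YA over control this was 18.2% higher and 24.2% lower, beside 17.4% and 16.4% of all genes. KLF4, a relative of KLF9, was among those higher in YA, with 1490 counts in control, 3552 with YA and 445 with OA.

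**Figure D3:**
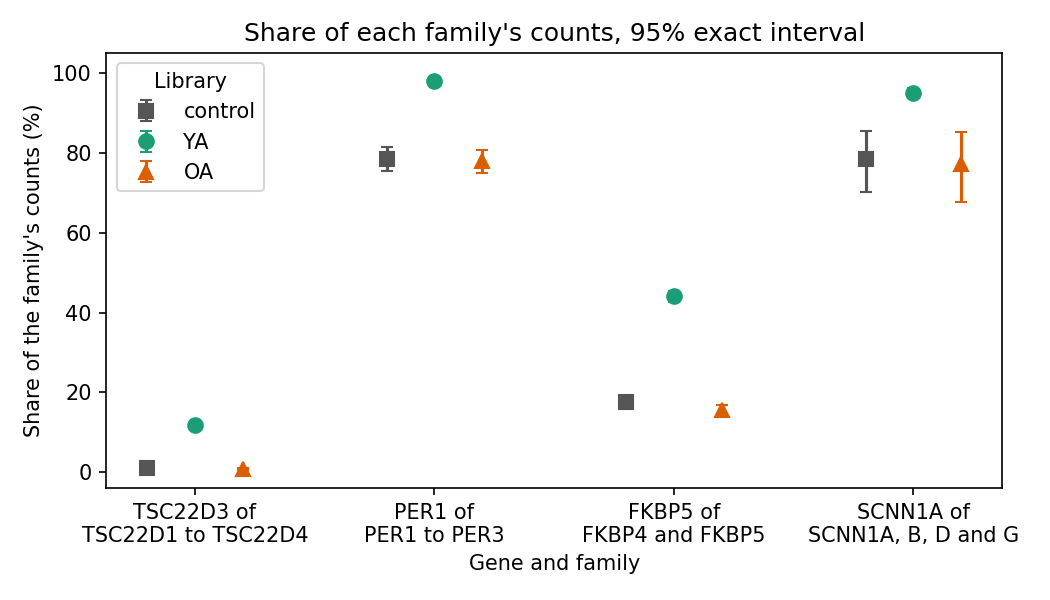
Share of each family's counts (%) taken by TSC22D3, PER1, FKBP5 and SCNN1A, with 95% exact binomial intervals and 1 point per library (square control, circle YA, triangle OA). The YA share is the highest in each of the 4 families, for example 44.1% for FKBP5 against 17.7% in control and 15.6% in OA.

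Other genes known to be induced by glucocorticoids were set beside the 10. Of 40 such genes 31 passed the filter. In YA against control 17 (54.8%) were at least 1.2-fold higher and 5 (16.1%) lower, beside 17.4% and 16.4% of all genes. In OA against control 11 (35.5%) were higher and 14 (45.2%) lower, beside 21.1% and 21.5% of all genes. In YA against OA 14 (45.2%) were higher and 6 (19.4%) lower, beside 23.0% and 21.5%. The median log2 fold changes were 0.49, -0.04 and 0.25 in that order. The same shares of all genes apply to the lists below. The list was chosen with earlier results of these data known, so nothing is read from its shares. The 4 largest changes in YA against control were those of ANGPTL4, MT2A, DDIT4 and CEBPD. ANGPTL4, a secreted lipase inhibitor, had 78 counts in control, 267 with YA and 183 with OA.

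These 4 genes differed in how OA behaved. MT2A, a metal-binding metallothionein, had 1860 counts in control, 5790 with YA and 4507 with OA. DDIT4, an mTORC1 inhibitor, had 712, 1686 and 714, and CEBPD, a transcription factor, had 177, 393 and 301. DDIT4 thus had the profile of FKBP5, with OA within 1.2-fold of control, while ANGPTL4, MT2A and CEBPD were above control in OA as well, at ratios of 2.79, 2.89 and 2.03.

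Anti-inflammatory targets of the receptor were also mixed. DUSP1, a phosphatase that switches off MAP kinases, had 681 counts in control, 1058 with YA and 385 with OA, a ratio of 1.56 in YA (1.41 to 1.72) and 0.673 in OA (0.593 to 0.764) against control. ZFP36, which promotes decay of cytokine mRNA, had 852, 1462 and 565 counts. DUSP1 and ZFP36 therefore had the order of KLF9 and SGK1. NFKBIA, the inhibitor of NF-kB, had 376, 768 and 1379 counts, so it was 2.05-fold above control in YA (1.81 to 2.32) and 4.37-fold in OA (3.90 to 4.91).

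Inflammatory genes that glucocorticoids repress were listed as well, and of 26 listed 17 passed the filter. This list too was chosen with earlier results of these data known, so nothing is read from its shares. IL6 and MMP9 had normalised counts under 20 in control and YA. They passed the filter only through OA, so their height there was set by the filter. In YA against control 10 were at least 1.2-fold higher and 4 lower, with a median log2 fold change of 0.31, but the counting interval lay above 1 for 6 and below 1 for 3. In OA against control 16 were higher and 1 lower, with a median of 2.48 and 15 intervals above 1. In YA against OA 0 were higher and 17 lower, with a median of -1.98. The interval lay above 1 for 20.6% and below 1 for 25.6% of all genes in YA against control. For OA against control it lay above 1 for 26.6% of all genes. IL6 had 5 counts in control, 10 with YA and 65 with OA.

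The chemokine gene CXCL8 had 401 counts in control, 495 with YA and 7523 with OA, and CXCL2 had 43, 127 and 337. IL11, an IL-6 family cytokine, had 341, 170 and 569, and the collagenase MMP1 had 82, 15 and 18. MMP1 was the exception in OA, low in both secretomes. MMP9, a gelatinase, had 1 count in control, 3 with YA and 92 with OA, a ratio of 109.6 in OA against control that rests on that 1 count (19.2 to 4375).

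**Figure D4:**
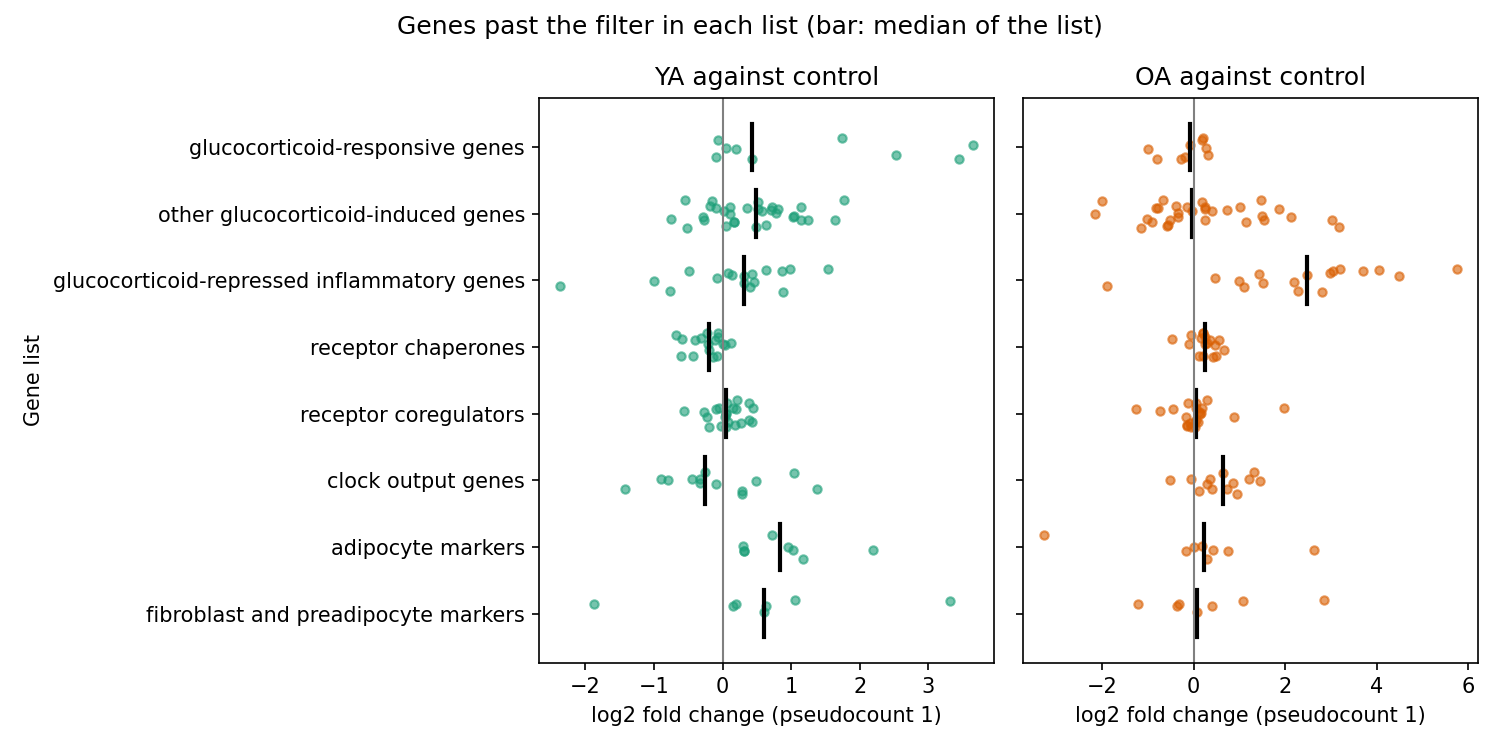
Log2 fold change (pseudocount 1) of each gene past the filter in 8 gene lists, with YA against control on the left and OA against control on the right. Each point is a gene and each bar a list median, for example 0.44 and -0.09 for the glucocorticoid-responsive genes and 0.31 and 2.48 for the inflammatory genes.

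The machinery that holds and matures the receptor was measured next. All 17 listed chaperones and co-chaperones passed the filter, and 0 were at least 1.2-fold higher and 6 lower in YA against control, with a median log2 fold change of -0.19. In OA against control 7 were higher and 1 lower (median 0.25), and in YA against OA 0 were higher and 13 lower (median -0.46). FKBP5 was kept apart from this list, and its relative FKBP4 had a ratio of 0.912 in YA against control (0.866 to 0.961). HSP90AB1, the constitutive HSP90, had 44907, 44778 and 44818 counts in control, YA and OA. HSP90AA1, the inducible HSP90, had 36995, 32245 and 49233, a ratio of 1.59 in OA against control (1.56 to 1.61) and 0.551 in YA against OA (0.544 to 0.559).

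PTGES3, the p23 co-chaperone that stabilises the hormone-binding state, had 12649, 11986 and 12621 counts. Its normalised ratio was 1.19 in OA against control (1.16 to 1.22). The largest differences of YA from control in this list were those of DNAJA1 with 5747, 3571 and 4628 counts, HSPA1A with 856, 558 and 831, BAG1 with 1221, 811 and 744, and HSPA8 with 53004, 39121 and 48555. In YA against OA the largest were those of HSPA1B (log2 -0.95), HSP90AA1 (-0.86) and HSPA1A (-0.82), of which HSPA1A and HSPA1B are near-identical copies with an uncertain split. Among 22 coregulators 5 were higher and 2 lower for YA over control, 3 and 3 for OA over control, and 7 and 3 for YA over OA. For YA over control this was 22.7% higher and 9.09% lower, beside 17.4% and 16.4% of all genes. Of these, JUN had 1554, 1049 and 788 counts, PPARGC1A 16, 22 and 55, ARID1A 4513, 6033 and 4019, and EP300 1873, 2450 and 1637.

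Other routes for steroid were sparse. NR3C2, the mineralocorticoid receptor, had 34, 35 and 26 counts, and it was not past 1.2-fold in any comparison. HSD11B1, which regenerates cortisol from cortisone, had 0 counts in all 3 libraries, which allows up to 3 in each. HSD11B2, which inactivates cortisol, had 4, 5 and 6 counts.

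Of 16 genes of steroid metabolism and transport 7 passed the filter, and 0 were higher and 3 lower for YA over control, 5 and 1 for OA over control, and 0 and 5 for YA over OA. The steroid-reducing enzymes AKR1C1 and AKR1C2 are near-identical, so their split is uncertain. AKR1C1 had 61, 37 and 96 counts and AKR1C2 had 204, 160 and 411, both highest in OA. SRD5A1, a 5-alpha reductase, had 553, 430 and 350, and ABCB1, a drug and steroid exporter, had 227, 191 and 258.

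Around SGK1 and SCNN1A, 14 of 18 genes of sodium transport passed the filter, and 3 were higher and 1 lower for YA over control, 2 and 0 for OA over control, and 3 and 1 for YA over OA. NEDD4L, the ubiquitin ligase that removes sodium channels and that SGK1 phosphorylates, had 4364, 4911 and 4624 counts. SGK3, a related kinase, had 93, 74 and 67. NDRG1, an SGK1 substrate, had 2687, 3262 and 1951 counts, in the order of SGK1 itself. USP2, a deubiquitinase, had 24, 41 and 29 counts.

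Beside PER1, 13 of 15 clock genes passed the filter, and 5 were higher and 6 lower for YA over control, 10 and 1 for OA over control, and 2 and 10 for YA over OA. NFIL3, a repressor, had 171, 446 and 190 counts, the order of PER1. ARNTL, which encodes BMAL1, had 200, 411 and 262. PER1 and NFIL3 were highest in YA while PER2 and PER3 were lowest there, so the clock genes did not share 1 direction.

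Beside ERRFI1, 10 of 12 genes of the EGFR and ERBB family passed the filter, and 1 was higher and 3 lower for YA over control, 8 and 1 for OA over control, and 1 and 8 for YA over OA. The ligand genes with the largest differences of YA from control were highest in OA, as ERRFI1 was. AREG had 218, 286 and 731 counts, HBEGF 235, 162 and 546, NRG1 185, 121 and 257, and EGF 19, 14 and 34.

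Genes that were highest in YA, as TSC22D3 was, were ordered by the smaller of the lower bounds of the ratios of YA to control and of YA to OA, over the 3 libraries. This order takes no account of OA against control. By that measure SCNN1A ranked 1 (10.3), TSC22D3 2 (8.62), PER1 3 (4.23) and FKBP5 13 (2.66) of 14413, with KLF9 at 283 and SGK1 at 816. SCNN1A, TSC22D3, PER1 and FKBP5 were chosen partly for this same pattern in these libraries, so nothing is read from their ranks. The first 10 genes outside the set were NEBL (3.79), SLCO2A1 (3.46), ITGA10 (3.40), DCN (3.12), ATF3 (2.97), C5AR1 (2.78), ADM2 (2.74), PABPC1L (2.71), ASNSP1 (2.71) and FOSB (2.63). SLCO2A1 and ASNSP1 had normalised counts under 20 in control and OA. They passed the filter only through YA, the library that this order favours. NEBL, an actin-binding protein gene, had 88 counts in control, 765 with YA and 142 with OA. ITGA10, a collagen-binding integrin gene, had 876, 3204 and 312.

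Among these genes the stress factor ATF3 had 1007, 3207 and 462 counts and the AP-1 subunit FOSB had 3695, 10053 and 902, with ratios of 0.547 and 0.291 in OA against control. ITGA10 was also low in OA, at 0.424 of control, while NEBL (1.92), ADM2 (1.81) and DCN (2.20) were above control there and TSC22D3 itself had 0.822. SLCO2A1, a prostaglandin transporter gene, had 8, 58 and 3 counts, and ADM2, a secreted peptide gene, had 90, 539 and 137. C5AR1, the receptor for complement C5a, had 25, 108 and 20. PABPC1L, a poly(A)-binding protein gene, had 504, 1720 and 482, with OA near control. ASNSP1 had 9, 50 and 5 counts and is a pseudogene of ASNS, so its reads are uncertain.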

How the data were processed

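Poly(A) RNA from A375 cells was sequenced in 3 libraries, 1 per group. For 58037 genes the authors deposited whole-number counts that had not been normalised. The submitters' processing notes name hg38, STAR 2.5.1b, featureCounts and R 3.6.1. The annotation release and the use of strand are not given in the sources used here, so counts of overlapping genes and of near-identical copies are uncertain. Total counts ranged from 18089008 to 21448195.

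Counts were divided by DESeq2 1.42.0 median-of-ratios size factors (1.06 for control, 1.06 for YA, 0.891 for OA; R 4.3.3). Those genes were kept whose mean over the libraries reached 20 normalised counts, which held 99.7% of all counts, and log2 fold changes used a pseudocount of 1. The study's methods name a cutoff of 1.2, read here as a linear fold. Without replicates no model was fitted, no p-value was computed, and ratios have 95% Clopper-Pearson intervals. The scripts were tested on simulated data. Other steps used matplotlib 3.10.9, scipy 1.17.1, pandas 2.3.3, numpy 2.4.6 and Python 3.11.15.

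The 10 genes and the 13 other gene lists (glucocorticoid-induced, glucocorticoid-repressed inflammatory, receptor chaperones, coregulators, other steroid receptors, steroid metabolism and transport, sodium transport, relatives, clock, EGFR and ERBB family, adipocyte, fibroblast and melanoma markers) were chosen with earlier results of these data known. Of the other steroid receptors only NR3C2 is described, and a result of that list is not reported here. Named genes were the 10, the 4 with the largest change in YA against control in each list, 20 taken whatever their values, the first 10 others by height in YA and overlapping genes. VIM, AXL, PRAME, SOX10, the pigment genes, LEP, CIDEA, LPL, HSP90AA1, HSPA1B, COL1A2 and COL3A1 were named after their values were seen. Positions and exon lengths are from GENCODE release 29 on GRCh38 (57433 of 58037 identifiers matched without version), promoters from RefSeq on GRCh38.p14. The E-box and cyclic AMP element were added after the response element had been searched. Alternatives were edgeR 4.0.16 TMM and total-count scaling, other filters, pseudocounts, thresholds and lengths.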

Additional observations from a re-analysis of the deposited data

How the results depend on the processing

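With 1 library per group, the depth limits CRISPLD2 and ZBTB16 most, and no spread between cultures is known. No value changed direction under any alternative run. No paired analysis was possible because each group had 1 library. The genes at least 1.2-fold higher in OA against control numbered 2, and 1 under TMM scaling, where ERRFI1 fell short. They numbered 1 with GC content and transcript length corrected for, an alternative chosen after seeing the data, under which PER1 fell short at a log2 fold change of 0.21. At a 2-fold threshold, with 1.2 read as a log2 value, or with an interval wholly beyond 1.2-fold, they numbered 0. The 3 lower genes in OA became 0 at 2-fold and 0 with 1.2 as a log2 value. They numbered 2 with a pseudocount of 5, where TSC22D3 fell short at a log2 fold change of -0.261. They also numbered 2 with an interval wholly beyond 1.2-fold, and 4 with no filter. The 6 higher genes in YA against OA became 5 with 1.2 as a log2 value, where SGK1 fell short at 1.193. With no filter on low counts, the set had 1 lower gene in YA against control (ZBTB16, 1 count against 0). The other glucocorticoid-induced genes then had 23 higher in place of 17 and 8 lower in place of 5. In YA against OA their 14 higher became 18 with no filter and 11 at a minimum mean of 100. They numbered 18 with GC content and transcript length corrected for. Levels per kilobase moved past their counting interval for 24 of 27 values with the longest transcript length. The wider window for the response element, 5 kb either side, was not run because no genome sequence was used here.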
